A study of Mus musculus with 62 samples.

Results

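The translation efficiency (TE) of 4521 genes was compared between the adult mouse heart and C2C12 myoblasts, a cell line derived from mouse skeletal muscle. TE was taken as the Ribo-seq counts of a gene relative to its RNA-seq counts, and the comparison was the difference between heart and C2C12 cells in this ratio. The genes were those whose counts averaged 10 or more within every one of the 4 groups of libraries, out of 10485 genes in the count table. The 14 libraries used, of 62 samples in the series, came from the hearts of wild-type male mice of the C57BL/6J strain at 10 weeks of age (WT heart, 4 RNA-seq and 4 Ribo-seq libraries) and from C2C12 cells infected with an empty retrovirus (control C2C12, 3 libraries per assay). The series was made to study RPL3L, a paralog of the ribosomal protein RPL3 that is found in heart and skeletal muscle, and these groups are the controls of its knockout mice and its overexpressing cells.

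The heart is a mixture of cardiomyocytes, endothelial cells, fibroblasts and other cells, whereas C2C12 is a single line of proliferating skeletal myoblasts, so that the comparison is between an organ and a line and not between stages of a lineage. Frozen hearts were broken with a bead device and cells were lysed directly in the same buffer. Per the paper, C2C12 cells come from a female mouse and infected cells were selected with puromycin. Tissue thus cannot be told apart from handling, sex or drug selection. The labels do not state that the C2C12 libraries came from separate cultures, and p-values measure only the spread between these libraries. In bulk tissue, fewer cells of a type and less RNA per cell cannot be told apart either.

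During translation, ribosomes move along an mRNA and protect a short fragment of it from RNase. Ribo-seq sequences these fragments, the footprints, and RNA-seq measures how much mRNA is present, so that their ratio tells how densely ribosomes occupy the mRNAs of a gene relative to those of other genes. The mRNAs of ribosomal proteins and of several elongation factors start with a run of pyrimidines, the terminal oligopyrimidine (TOP) motif, through which the kinase mTORC1 and the protein LARP1 adjust their translation to nutrients and growth. Proliferating cells have a high demand for ribosomes, and cardiomyocytes of the adult heart, which hardly divide, have a high demand for mitochondria and contractile proteins.

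To show what such starts look like in these mRNAs, 30 bases around the start site that RefSeq gives for GRCm38.p6 are printed for 7 of them, each read 5′ to 3′ on the plus strand with 10 bases before the start, and with the longest pyrimidine run in capitals. A run was a C followed by at least 5 bases that were each C or T, was searched on the transcribed strand only, and had to begin within 10 bases of the start. The first 6 belong to genes of lower TE in heart, with runs of 10 to 20 bases. The last belongs to the gene of a ribosomal protein with higher TE. Most other runs found in ribosomal protein and other TOP genes were shorter than 10 bases. The run of Rps2 has 6 bases, as do those of Rpl6 and Rps23, which had a lower TE in heart and are not printed. That of Rpl6 ends before the RefSeq start. So does the run of Rps27l, with 7 bases, a gene whose TE difference of -0.10 did not pass the test.
Rack1 (chr11:48800350-48800379): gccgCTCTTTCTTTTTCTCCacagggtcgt
Fau (chr19:6057937-6057966): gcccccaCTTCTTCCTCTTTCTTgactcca
Rpl28 (chr7:4792955-4792984): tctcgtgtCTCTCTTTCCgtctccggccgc
Rpl27a (chr7:109519185-109519214): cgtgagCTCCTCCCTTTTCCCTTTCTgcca
Rpl7a (chr2:26910797-26910826): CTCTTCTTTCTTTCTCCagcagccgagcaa
Eif3f (chr7:108934405-108934434): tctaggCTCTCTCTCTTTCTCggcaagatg
Rps2 (chr17:24720053-24720082): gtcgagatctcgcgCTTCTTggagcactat

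Such a run was found in 20 of the 38 ribosomal protein genes (52.6%) with a RefSeq start within 500 bases of the annotated start, in 687 of all 3388 tested genes with such a match (20.3%), and in 3186 of the 16560 plus-strand promoters of the RefSeq table (19.2%). A match is a description of the letters, and no match says only that the letters are not in this window. Some of the runs counted end before the RefSeq start and so lie outside the mRNA by that annotation.

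Total counts over all transcripts ranged from 3594696 to 14041366 in heart RNA-seq, from 1873813 to 3192090 in heart Ribo-seq, from 14324795 to 29746110 in C2C12 RNA-seq and from 3167026 to 4228211 in C2C12 Ribo-seq. All 23662 transcripts that matched the GENCODE annotation lay on the plus strand, and genes of the minus strand are not analysed here. The 6 cardiomyocyte markers in the table summed to between 123370 and 163920 CPM (normalised read counts as a share of the library, scaled by TMM within the assay) in heart RNA-seq and to 386 to 398 CPM in C2C12 RNA-seq, where 4 of the 6 were at 0. In C2C12 Ribo-seq they summed to 76.2 to 115 CPM with none at 0 in every library. Myod1, the gene of a transcription factor that defines myoblasts, was at 0 in each of the 4 heart RNA-seq libraries and at 146, 120.4 and 132 CPM in those of C2C12 cells. The 6 myoblast markers together were higher in heart, at 5371 to 5950.2 CPM against 1341 to 1396 CPM, most of it from desmin (Des), which cardiomyocytes also express, and 3 of them were at 0 in heart RNA-seq. Markers of other cells of the heart also summed to higher levels in heart RNA-seq, at 1582 to 1610 CPM against 4.56 to 5.38 CPM for 8 endothelial markers, 303 to 402 against 0.490 to 1.32 for 4 macrophage markers, and 5487 to 6560 against 3307 to 3450 for 9 fibroblast markers. Among the fibroblast markers, Gsn and Dcn were far higher in heart, with means of 2327 against 198 CPM and 1245 against 11.1 CPM. Col1a1, Col1a2 and Col3a1 were lower in heart, with means of 457 against 591, 510 against 1378 and 872 against 1128 CPM. None of the endothelial, macrophage or fat cell markers had enough counts in C2C12 cells to enter the comparison of TE.

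Rpl3l itself could not be compared, because its mean RNA-seq count in C2C12 cells was under 10. Its RNA-seq counts were 1442, 2278, 2090 and 7175 in the hearts and 9, 5 and 5 in the cells. Its Ribo-seq counts were 926, 675, 632 and 499 in the hearts and 29, 14 and 25 in the cells.

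Of the 4521 genes, 2489 (55.1%) differed in TE at an adjusted p under 0.05, of which 1234 (27.3%) were higher in heart and 1255 (27.8%) lower. A difference of at least 2-fold was found for 1076 genes (23.8%), 621 higher (13.7%) and 455 lower (10.1%), and one of at least 4-fold for 55 and 38 genes. For 1805 genes (39.9%) the ratio had the same order for every choice of 1 RNA-seq and 1 Ribo-seq library per tissue. The median log2 difference was -0.0059, the middle 90% of genes lay between -1.26 and 1.48, and the median standard error (SE) of a gene was 0.205. Since TE is relative to other genes within a library, these data do not give the rate of protein synthesis per cell. Scaling by library totals in place of TMM moved the median to 0.22 and the split to 1622 higher and 851 lower, so that directions are relative to the median gene.

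The levels themselves differed more than their ratio. RNA-seq differed for 3768 genes (83.3%) and Ribo-seq for 3552 (78.6%), with a standard deviation over genes of 1.73 and 1.61 on the log2 scale, against 0.90 for TE. Across genes, which are not independent replicates, the differences in the 2 assays had a Pearson r of 0.86, and the ratio in heart had one of 0.64 with the ratio in C2C12 cells. Among the genes of lower TE in heart, 433 were higher in heart in both assays, with footprints rising by less than the mRNA, 319 were lower in both, and 117 were higher in RNA-seq and lower in Ribo-seq. Among those of higher TE, 264 were higher in both assays, 374 were lower in both, and 156 were lower in RNA-seq and higher in Ribo-seq.

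**Figure D1:**
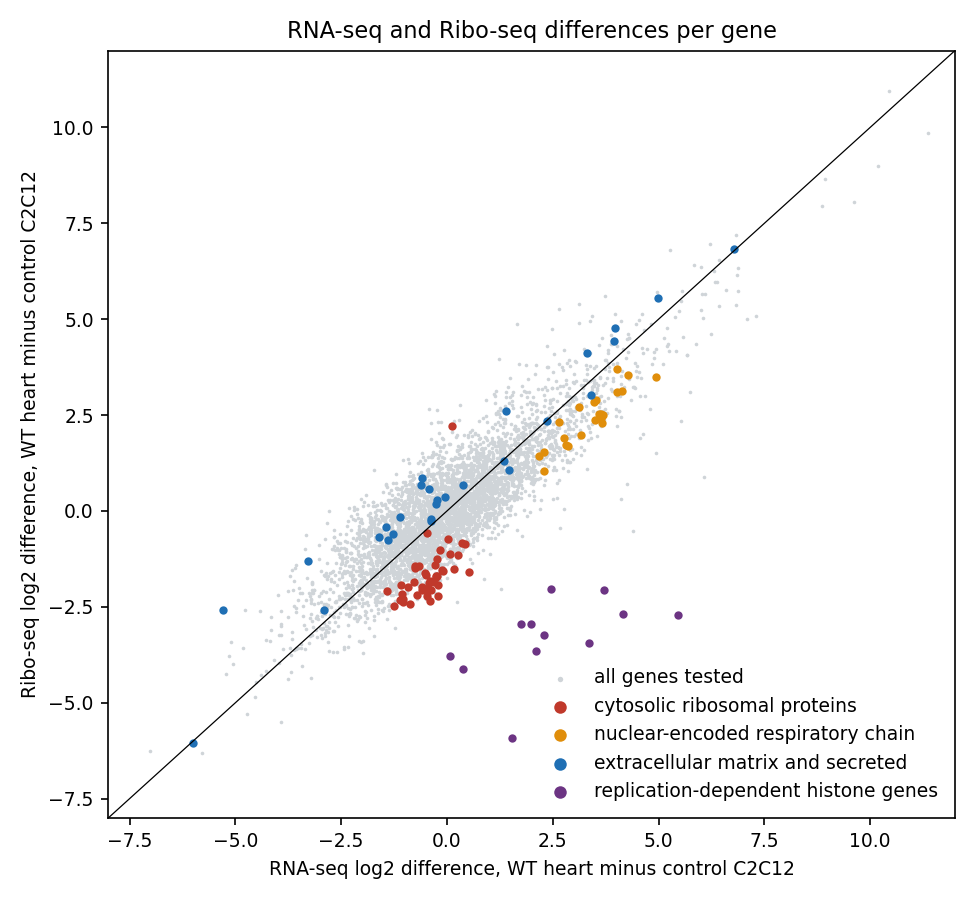
Log2 difference between WT heart and control C2C12 in RNA-seq (horizontal axis) and Ribo-seq (vertical axis) for 4521 genes, with the diagonal marking equal differences, so that genes under it have a lower TE in heart. Ribosomal protein genes, except Rps2, and respiratory chain genes lie under the diagonal, with median RNA-seq differences of -0.41 and 3.53, and histone genes lie far under it.

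Genes of cytosolic ribosomal proteins, the subunits of the translating ribosome, had a lower TE in heart. Of 83 genes in the list 46 were in the count table and 44 were tested. Of these, 40 were lower in heart (90.9%, against 27.8% of all genes tested), 1 was higher and 3 did not pass the test, and the median log2 difference was -1.30, a 2.46-fold lower ratio. The difference was at least 2-fold lower for 35 of the 44 (10.1% of all genes), and for 35 of them the ratio was lower in heart for every choice of libraries (20.4% of all genes). In RNA-seq the median difference of the list was -0.41 and in Ribo-seq -1.77. Their summed share of the counts was 5.22%, 6.10%, 4.59% and 5.56% in heart RNA-seq and 11.5%, 11.9% and 11.7% in C2C12 RNA-seq. In Ribo-seq their share was 2.01%, 1.41%, 1.18% and 1.20% in heart and 6.30%, 6.88% and 6.58% in C2C12 cells. Heart was thus lower in both assays, and in Ribo-seq by more.

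Rack1 (ENSMUST00000020640, chr11:48800360-48806434), whose product is a scaffold on the small ribosomal subunit, shows the pattern. Its RNA-seq level was 1481, 1714, 1249.6 and 1581 CPM in heart and 3034, 3159.6 and 3152 CPM in C2C12 cells. Its Ribo-seq level was 1038, 677, 502 and 511 CPM in heart and 3383, 3716 and 3506 CPM in C2C12 cells. Neither assay overlapped between tissues, and TE was lower in heart by a log2 difference of -1.32 (SE 0.26, adjusted p = 3.52e-04, edgeR). For Rpl8 (chr15:76904078-76906314), a protein of the large subunit, RNA-seq levels were 2027, 2381, 1604 and 2248 CPM in heart and 4902, 5026 and 4876 CPM in C2C12 cells. Its Ribo-seq levels were 796, 597, 447 and 482 CPM and 3043, 3481 and 3269 CPM. TE of Rpl8 differed by -1.23 (SE 0.22, adjusted p = 8.52e-05). In both genes the first heart Ribo-seq library was the highest of the 4, as it was for the summed share of ribosomal proteins, and without it the median of the list was -1.56.

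The largest decrease in the list was that of Rpl26 (chr11:68901583-68904534), a protein of the large subunit, at -2.12 (SE 0.22). Its RNA-seq level was higher in heart, 1185, 1682, 1139 and 1588 CPM against 964, 1015 and 946 CPM. Its Ribo-seq level was lower, 447, 302, 282 and 255 CPM against 921, 1044 and 994 CPM. Rps19 and Rps16, proteins of the small subunit, differed by -1.94 and -1.74. Rpl5 of the large subunit, which binds 5S rRNA, differed by -1.69, and Rpl28, Fau, Rpl7a and Rpl27a, whose starts are printed above, by -1.67, -1.59, -1.48 and -1.44. The large subunit (28 of 29 genes lower, median -1.27) and the small subunit with Rack1 (12 of 15 lower, median -1.41) shared the direction. The genes that did not pass were Rpl12, Rpsa and Rps27l, with values of -0.66, -0.84 and -0.10. Rps27l is a paralog of Rps27 known as a target of p53.

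Rps2, a protein of the small subunit, was the exception, with a log2 difference of 2.10 (SE 0.38, adjusted p = 1.23e-04). Its RNA-seq levels overlapped, at 2182, 2653, 1718 and 2522 CPM in heart and 2271, 1824 and 2139 CPM in C2C12 cells. Its Ribo-seq level was low beside these in both tissues, at 67.7, 28.7, 35.2 and 28.2 CPM and 8.61, 8.36 and 10.0 CPM. Of the 28-base windows of this transcript, 78.1% also occur in transcripts of other genes, and how the counts were divided between such copies was not tested. Ribosomal protein genes have many processed pseudogenes, and multiple mappings were allowed by the authors. The 22 ribosomal protein genes with at most 50% of such shared windows had a median of -1.43 with 19 lower in heart, and the 22 others one of -1.18 with 21 lower.

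Of 12 tested genes with a TOP start that do not code for ribosomal proteins, 9 were lower in heart and 2 higher (75% and 16.7%, against 27.8% and 27.3% of all genes), with a median of -0.89. Only 3 of the 9 with a matched RefSeq start had a pyrimidine run as defined above. The elongation factors were among the lower ones. Eef2 (chr10:81176631-81182498), which moves the ribosome along the mRNA, had RNA-seq levels of 5004, 7529, 6915 and 7351 CPM in heart and 5884, 5860.3 and 5891 CPM in C2C12 cells, which overlapped. In Ribo-seq the levels were 3554, 2125, 1652 and 1676 CPM and 5767, 6152 and 5892 CPM, with a TE difference of -1.58 (SE 0.31, adjusted p = 4.94e-04). Eef1b2 and Eef1g, parts of the complex that reloads the elongation factor eEF1A with GTP, differed by -1.62 and -1.38. Eif3f, Eif4b and Tpt1 differed by -1.38, -1.10 and -1.17. The higher ones were Naca, a chaperone of nascent chains, at 0.71, and the helicase Eif4a2 at 0.81. For Naca, RNA-seq levels were 2362, 2618, 2273 and 2479 CPM and 1789, 1891 and 1864 CPM, and Ribo-seq levels 3332, 2959, 2895 and 2753 CPM and 1297, 1486 and 1387 CPM. The tested transcript of Naca is the long form known from muscle, with 6745 bases, whereas the TOP start is known for the short form, and isoforms of a gene share reads.

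Ribosomal protein genes with and without a pyrimidine run at the start were both low. Those with a run had a median TE difference of -1.26 and those without one of -1.44. Among 3341 matched genes in neither TOP list, the 664 with a run had a median of 0.04 and the others one of -0.03.

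**Figure D2:**
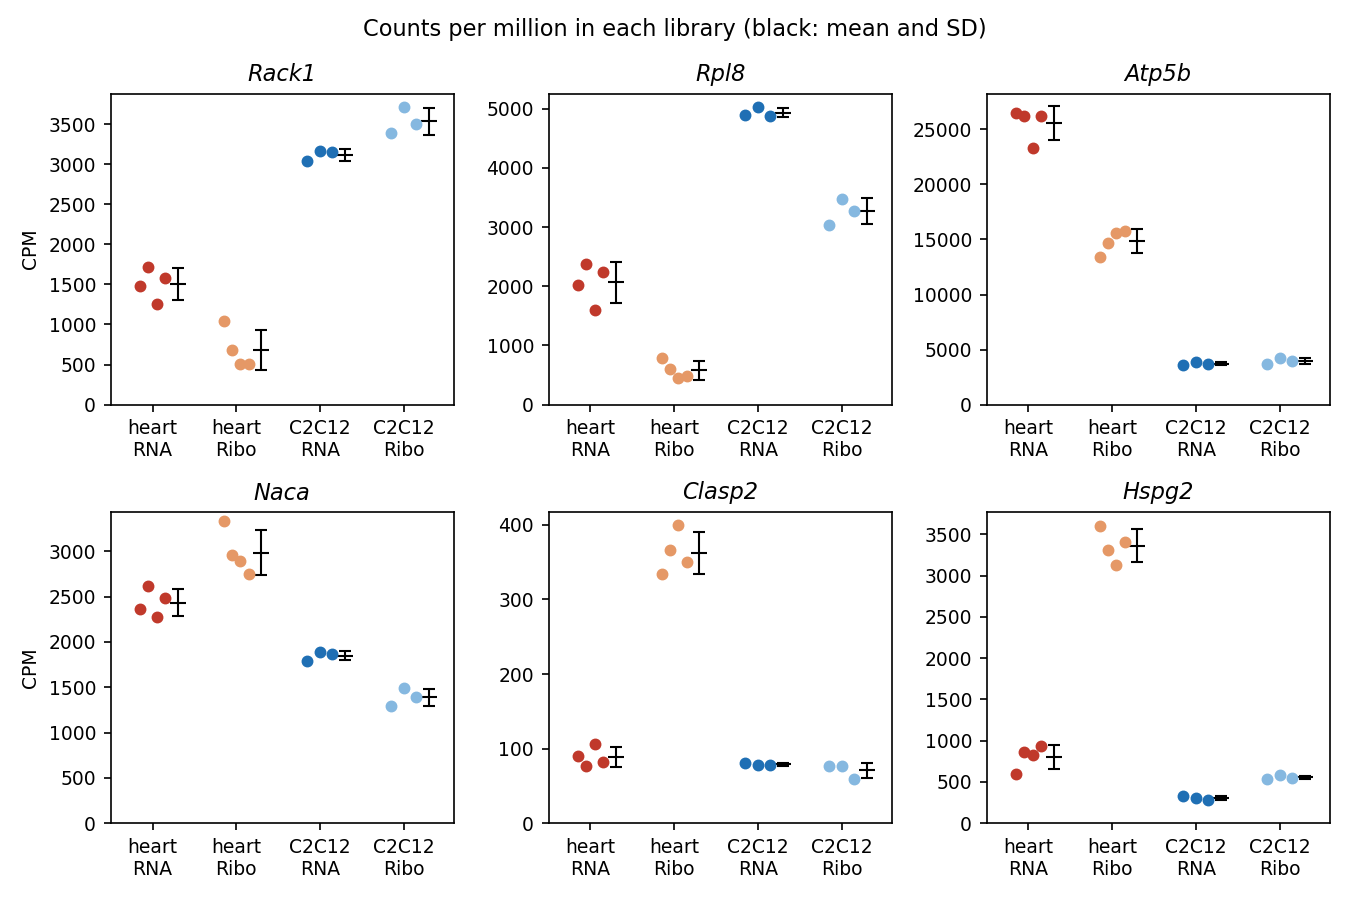
Normalised counts (CPM, vertical axes from 0) in each RNA-seq and Ribo-seq library of WT heart (4 per assay) and control C2C12 cells (3 per assay) for 6 genes, with black bars for the mean and SD of each group. For Rack1 and Rpl8 footprints were lower relative to RNA in heart than in C2C12 cells and for Atp5b they fell below RNA in heart only, whereas for Naca, Clasp2 and Hspg2 they were higher relative to RNA in heart.

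Mitochondrial genes of short transcripts followed, although their levels moved the other way. All 23 tested genes of the nuclear-encoded respiratory chain (of 83 in the list, 24 in the table) had a lower TE in heart, against 27.8% of all genes, with a median of -1.07 and a range from -1.45 for Ndufa3 to -0.32 for Uqcrc2. Their mRNAs were far more abundant in heart, with a median log2 difference of 3.53, and their footprints rose by less, with a median of 2.45. Their summed share of counts was 8.44% to 9.46% in heart RNA-seq and 6.76% to 7.57% in heart Ribo-seq, and 1.42% to 1.45% and 1.75% to 1.81% in C2C12 cells. Atp5b (chr10:128083273-128090391), the catalytic subunit of ATP synthase, had RNA-seq levels of 26515, 26177, 23273 and 26234 CPM in heart and 3608, 3858 and 3711 CPM in C2C12 cells. Footprint levels were 13379, 14666, 15568 and 15737 CPM and 3722, 4197 and 3998 CPM. Both assays were higher in heart without overlap, and TE differed by -0.88 (SE 0.13, adjusted p = 5.71e-06). Ndufs7 and Ndufb9 of complex I differed by -1.38 and -1.18, Cyc1 of complex III by -1.16, Cox5b and Cox7b of complex IV by -1.22 and -1.20, and Sdhb of complex II by -0.73. Atp5a1 of ATP synthase differed by -0.63.

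Of 47 tested genes of mitochondrial ribosomal proteins, which translate the mRNAs made within mitochondria, 34 were lower in heart (72.3%, against 27.8% of all genes) and 13 did not pass, with a median of -0.64. Their RNA-seq level was higher in heart by a median of 1.26 and their Ribo-seq level by 0.57. Mrpl28 and Mrpl12 differed by -1.16 and -0.97, and Mrps26 by -1.29. The largest decrease was that of Mrps34 at -1.52, but 62.7% of its exon bases overlap genes on the other strand, and the strand setting of the count is not given. The enzymes of the citrate cycle and of fatty acid oxidation did not share this direction. Of 19 tested, 8 were lower (42.1%, against 27.8% of all genes), 4 were higher (21.1%, against 27.3%) and 7 did not pass, with a median of 0.0034 at RNA-seq levels 4.27 higher in heart. Etfb (-1.63, with 69.1% of its exon bases in another gene of the same strand), Mlycd (-1.01) and Mdh2 (-0.98) had the largest decreases. Acsl1 and Cpt1a, which activate fatty acids and commit them to import into mitochondria, were higher at 0.74 and 0.70, but Acsl1 did not pass with Rpl3l-/- hearts and RPL3-expressing cells (0.29, adjusted p = 0.200) or with the trend in length removed (0.47). Hadhb, with 66.5% of its windows in other genes, was lower at -0.75, and Lpl did not pass, at 0.51. Citrate synthase (Cs) did not pass, at 0.13 (SE 0.12).

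Genes of the extracellular matrix and of secreted proteins had a higher TE in heart. Of 28 tested genes (of 68 in the list, 34 in the table), 18 were higher (64.3%, against 27.3% of all genes), none was lower and 10 did not pass, with a median of 0.54. Their median difference was -0.32 in RNA-seq and 0.47 in Ribo-seq. Hspg2 (chr4:137468803-137570629), which encodes the basement membrane proteoglycan perlecan, had RNA-seq levels of 591, 857, 821 and 933 CPM in heart and 324, 304 and 284 CPM in C2C12 cells. The Ribo-seq levels were 3605, 3310.1, 3132 and 3412 CPM and 539, 580.5 and 547 CPM, and TE differed by 1.20 (SE 0.16, adjusted p = 1.67e-06). This transcript has 14176 bases, and with the trend in length removed the value was 0.08 (adjusted p = 0.722). Other genes of basement membranes were higher as well, among them Nid1 at 1.98, Lamb1 at 0.99, Col4a2 at 0.81 and Lama4 at 0.55.

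The largest difference in the list was that of Thbs1 (chr2:118111876-118127133), which encodes the matrix glycoprotein thrombospondin 1, at 2.70 (SE 0.20, adjusted p = 3.34e-10). It was lower in heart in both assays and far lower in RNA-seq. Its RNA-seq levels were 7.67, 15.8, 15.6 and 8.82 CPM in heart and 439.8, 461 and 432 CPM in C2C12 cells. Ribo-seq gave levels of 222, 201, 197 and 272 CPM and 1289.6, 1428 and 1288 CPM. Among collagens of interstitial tissue, Col1a2 and Col5a1 were higher at 1.02 and 0.94, whereas Col1a1 and Col3a1 did not pass, at 0.10 (SE 0.14) and 0.17 (SE 0.13). Dcn, the proteoglycan decorin, had a value of 0.050 (SE 0.18), while its mRNA was higher in heart by 6.79. Timp3, an inhibitor of metalloproteinases, and Plod2, which hydroxylates collagen, were higher at 1.45 and 1.30. The fibroblast markers summed to a higher level in heart than in C2C12 cells in both assays, as given above for RNA-seq. Col1a1, Col1a2 and Col3a1 among them were lower in heart in both. The part of these markers in the TE differences was not tested.

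**Figure D3:**
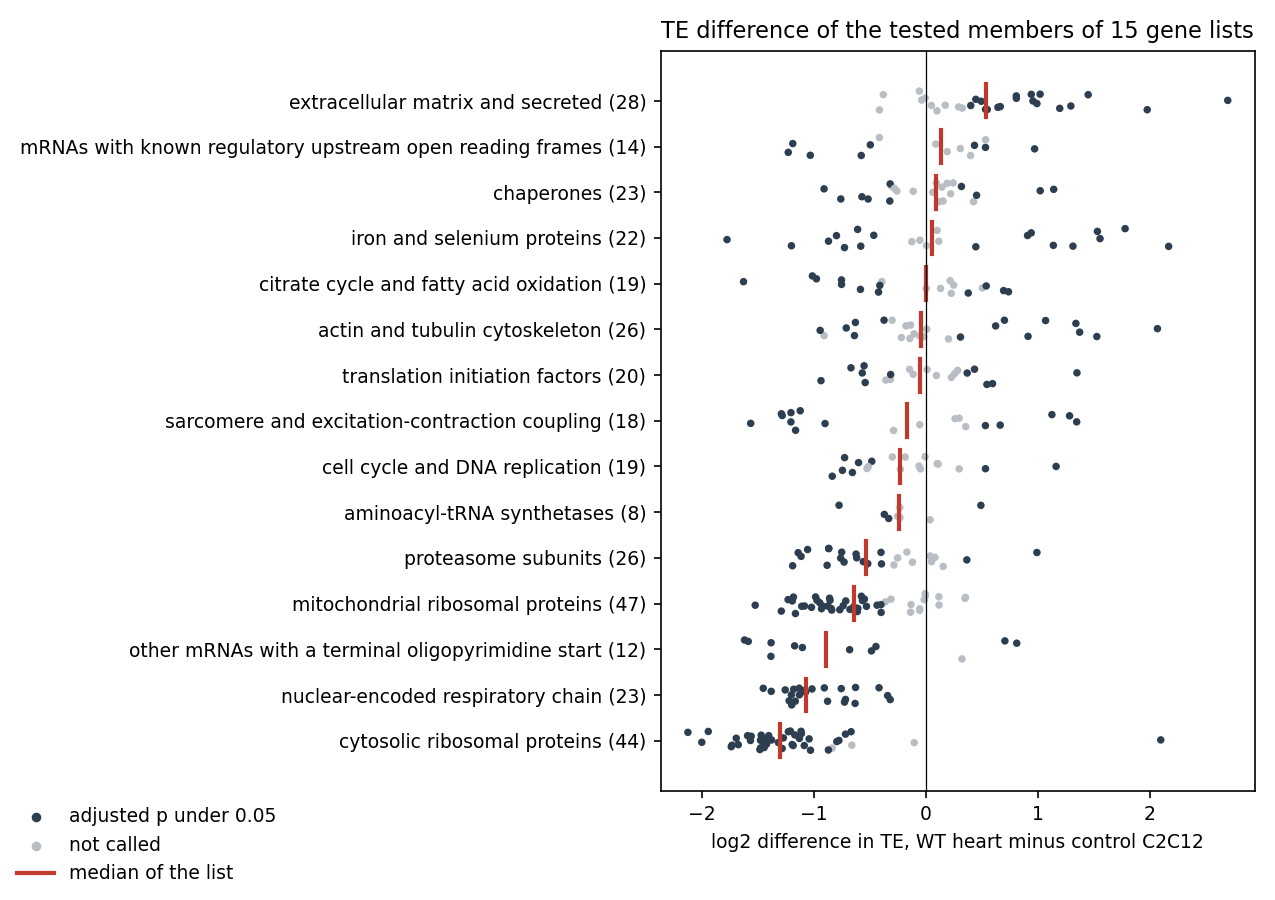
Log2 difference in TE between WT heart and control C2C12 (horizontal axis) for the tested members of 15 gene lists, with the number tested in parentheses, 1 point per gene, dark where the adjusted p was under 0.05, and a red bar at the median. The points of the respiratory chain all lie below 0, those of ribosomal proteins do so except Rps2 at 2.10, and called genes of the extracellular matrix all lie above 0.

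Proteasome subunits were mostly lower, 16 of 26 tested (61.5%, against 27.8% of all genes) against 2 higher (7.69%, against 27.3%), with a median of -0.54. The ATPases of the base Psmc3 and Psmc1 differed by -1.19 and -1.14, and the core subunits Psmb6 and Psmb3 by -1.11 and -0.87. Among the activators that attach to the core in place of the regulatory cap, Psme4 and Psme3 were the higher ones at 0.99 and 0.37, whereas Psme1 was lower at -1.05. Psmd2 of the regulatory cap was lower at -0.40, but not with library totals (-0.16, adjusted p = 0.205). Psme4, at 6491 bases, is far longer than the median of 1710.5 bases of the list. Among 20 initiation factors, 6 were lower and 5 higher (30% and 25%), shares near those of all genes (27.8% and 27.3%), with a median of -0.050. Eif3b, a core subunit of eIF3, was lower at -0.31, but not with library totals (-0.08). Its call was also lost without C2C12 RNA-seq replicate 3 (-0.31) and with no filter beyond a total of 10 counts (-0.30). Eif1a and Eif1ax, paralogs that position the scanning ribosome, were both higher, at 1.35 and 0.55, and Eif2b2 and Eif5b were lower at -0.94 and -0.67. The scaffold Eif4g1 stood at 0.012 (SE 0.11). Of 8 aminoacyl-tRNA synthetases, 3 were lower and 1 higher (37.5% and 12.5%, against 27.8% and 27.3% of all genes). Vars, Aars and Gars were lower at -0.77, -0.37 and -0.33, Iars was higher at 0.49, and 4 did not pass. Vars did not pass in the other 2 sets of libraries described below (-0.25 and -0.32), Gars did not with library totals (-0.10) and neither Gars nor Iars did with the trend in length removed (-0.14 and 0.10). Of 23 chaperones, 6 were lower (26.1%, near the 27.8% of all genes) and 4 higher (17.4%, against 27.3%), with a median of 0.09. The abundant Hspa8, with 77.9% of its windows in other genes, was lower at -0.51, but not with library totals (-0.28). Hspa5 of the endoplasmic reticulum did not pass, at 0.19, but did with library totals (0.43). The called chaperones included the chaperonin subunit Cct7 at -0.76, the small heat shock protein Hspb1 at -0.91, and Hspa4l and Ptges3 at 1.14 and 1.02.

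Genes of the sarcomere and of excitation-contraction coupling were divided, with 8 of 18 tested lower (44.4%, against 27.8% of all genes), 5 higher (27.8%, near the 27.3% of all genes) and a median of -0.17. Of the 63 genes in this list only 30 were in the count table, and 12 of those had too few counts in C2C12 cells or heart. The tested part thus holds few of the heart's contractile proteins. Tnnc1 (chr14:31208312-31211729), the calcium-binding troponin of the heart, had RNA-seq levels of 14235, 15234, 9644 and 13200.0 CPM in heart and 16.8, 18.7 and 15.0 CPM in C2C12 cells. Its Ribo-seq levels were 4052, 4392, 4511 and 4904 CPM and 14.8, 16.7 and 19.5 CPM, and TE differed by -1.56 (SE 0.25, adjusted p = 1.24e-05). The cardiomyocyte marker Mybpc3 stood at 0 CPM in every C2C12 RNA-seq library but at 12.7, 20.1 and 16.2 CPM in C2C12 Ribo-seq, near Tnnc1. Myl2 and Myl3, with C2C12 RNA-seq means of 0.0975 and 0 CPM, were lower there, at Ribo-seq means of 4.24 and 1.98 CPM. Where these counts came from was not tested, so that the size of the Tnnc1 difference is uncertain. Cryab, a chaperone of desmin, and desmin itself (Des) were lower at -1.29 and -1.20. The filamin Flnc, the adhesion protein vinculin (Vcl) and the kinase Camk2d were higher, at 1.35, 1.28 and 1.13. Tnnt2, cardiac troponin T and the only cardiomyocyte marker tested, had a value of 0.36 (SE 0.17) that did not pass. It passed with library totals (0.59), with the trend in length removed (1.00), and without heart RNA-seq replicate 2 (0.42) or C2C12 Ribo-seq replicate 3 (0.46).

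Of 26 genes of the actin and tubulin cytoskeleton, 9 were higher (34.6%, against 27.3% of all genes) and 5 lower (19.2%, against 27.8%), with a median of -0.043. The abundant intermediate filament gene Vim did not pass, at -0.10. The pair Arpc1a and Arpc1b, alternative subunits of the actin-branching Arp2/3 complex, lay on opposite sides, at 2.07 (SE 0.15) and -0.94 (SE 0.14), the latter losing its call with the trends in length and GC content removed (-0.21, adjusted p = 0.264). Arpc1a had RNA-seq levels of 143, 194, 129.9 and 170.0 CPM in heart and 194, 190.3 and 188 CPM in C2C12 cells, which overlapped in part. In Ribo-seq the levels were 224, 227, 233 and 255 CPM and 64.7, 66.8 and 68.5 CPM, with no overlap. Arpc1b was lower in heart in both assays, at 289, 269.9, 224 and 277 CPM against 814, 809 and 816 CPM in RNA-seq and 136, 119, 105 and 105 CPM against 695, 705 and 679 CPM in Ribo-seq. Tubb3, Rdx and Tuba1c were higher by 1.37, 1.34 and 1.07. Cofilin (Cfl1), which severs actin filaments, stood at 0.31, and its call was lost without most single libraries. The medians of initiation factors, sarcomere genes, cell cycle genes and the cytoskeleton lay near 0 and became positive with library totals, at 0.18, 0.05, 0.0020 and 0.19.

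Iron and selenium proteins had 9 genes higher and 8 lower of 22 tested (40.9% and 36.4%, against 27.3% and 27.8% of all genes), with a median of 0.05. Translation of several of them is known to be set by elements in the mRNA. Fth1, the heavy chain of ferritin, whose mRNA carries an iron-responsive element, had a TE difference of 0.94 (SE 0.35, adjusted p = 0.0353). Footprint levels were 1263, 1701, 3106 and 1206 CPM in heart and 599.9, 585 and 607 CPM in C2C12 cells, and RNA-seq levels 8842, 9411, 8960.4 and 10432 CPM and 5899, 5841 and 6076 CPM. The third heart Ribo-seq library was far above the other 3, and without it the difference was 0.55 and was still called, whereas leaving out any C2C12 library or one of heart RNA-seq replicates 1 to 3 ended the call for Fth1, with adjusted p between 0.0533 and 0.0961. Fth1 did not pass in the other 2 sets of libraries described below either (0.40 and 0.53). The transferrin receptor Tfrc and the iron-regulatory protein Ireb2 were higher at 1.78 (SE 0.49) and 1.14. Among selenoproteins, in which a UGA codon is read as selenocysteine, Selenok, Selenom, Selenoo, Gpx4 and Gpx1 were lower at -1.77, -1.20, -0.87, -0.80 and -0.61, whereas Selenoi, Gpx3 and Selenot were higher at 1.56, 1.53 and 0.91. Of 14 mRNAs with known regulatory upstream open reading frames, 5 were lower and 3 higher (35.7% and 21.4%, against 27.8% and 27.3% of all genes). Atf4, the transcription factor of the integrated stress response, was lower at -1.03, Cebpb and Oaz1 at -1.23 and -1.19, and Cdkn1b and Eif5 were higher at 0.53 and 0.44. Of 19 genes of the cell cycle, with a median RNA-seq difference of -2.27, 6 had a lower TE (31.6%, against 27.8% of all genes) and 2 a higher one (10.5%, against 27.3%). Cyclin D3 (Ccnd3) was lower at -0.83 (SE 0.15), but stood at 0.06 and 0.050 in the other 2 sets of libraries described below. Cdk4 was lower at -0.60 and did not pass in those sets, Cdc25a was higher at 1.16, and Rrm2, a subunit of ribonucleotide reductase, did not pass, at -0.52. Rrm2 passed with DESeq2 (-0.60) and without heart RNA-seq replicate 2 (-0.71), but stood at 0.13 and 0.10 in the other 2 sets of libraries.

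The largest increases among well-covered genes were those of single genes, 9 of the 10 outside these lists. They were taken among called genes whose counts averaged 50 or more in every group, with the same order of the ratio for every choice of libraries. Ahnak (chr19:8989284-9019196), a giant scaffold protein under the cell membrane, had the largest, at 2.85 (SE 0.26, adjusted p = 1.65e-07). Its RNA-seq levels overlapped, at 631, 1271, 1456 and 1300.3 CPM in heart and 1404, 1413 and 1286 CPM in C2C12 cells. The Ribo-seq levels were 3531, 3583, 4221 and 3752 CPM in heart and 673, 575 and 583 CPM in C2C12 cells. The cytoskeletal linker Dst, Fnip1, a partner of folliculin in nutrient signalling, and Phkb, a subunit of phosphorylase kinase, which starts glycogen breakdown, followed at 2.74, 2.67 and 2.55. Prune2, the calcium channel subunit Cacna2d1, Prrc2b, the endothelial receptor Heg1 and the microtubule-binding protein Clasp2 differed by 2.48, 2.46, 2.28, 2.22 and 2.17.

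In several of these, RNA-seq hardly differed and the footprints carried the difference. Clasp2 (chr9:113812598-113918190) had RNA-seq levels of 90.4, 76.6, 107 and 81.8 CPM in heart and 80.3, 78.1 and 77.7 CPM in C2C12 cells. Ribo-seq gave levels of 334, 366, 400.2 and 350.2 CPM in heart and 77.0, 76.9 and 59.1 CPM in C2C12 cells. Phkb (chr8:85841002-86061376) had RNA-seq levels of 81.8, 94.5, 106 and 95.5 CPM and 115, 110.1 and 108 CPM, and Ribo-seq levels of 228, 257, 228 and 236 CPM and 52.0, 42.9 and 45.7 CPM. For both genes the RNA-seq levels lay close together or overlapped and the Ribo-seq levels did not. The last of the 10 was Ftl1-ps1 at 2.17, a copy of the ferritin light chain gene, with 91.9% of its 28-base windows in transcripts of other genes, so that its value is uncertain. The shortest of the other 9 transcripts had 3933 bases, against a median of 2936 over all genes.

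Among the 10 largest decreases, 4 were histone genes, Hist1h2bc at -6.84, Hist1h2bg at -6.81, Hist3h2a at -5.52 and Hist1h1c, given below, and H2afj, a replication-independent histone H2A, was a further one at -2.62. Sord (chr2:122234749-122265340), sorbitol dehydrogenase, had RNA-seq levels of 631, 757, 816 and 759 CPM in heart and 37.7, 48.7 and 43.2 CPM in C2C12 cells. Its Ribo-seq levels overlapped, at 70.8, 37.9, 79.0 and 41.6 CPM and 48.4, 49.0 and 45.1 CPM, and TE differed by -3.80 (SE 0.24, adjusted p = 6.92e-11). Kiz (chr2:146855864-146970097), which encodes a centrosomal protein, was similar, with RNA-seq levels of 341, 350.1, 259 and 350.1 CPM and 47.0, 49.0 and 48.4 CPM, Ribo-seq levels of 63.8, 45.1, 52.3 and 41.6 CPM and 44.3, 52.4 and 55.2 CPM, and a difference of -2.71 (SE 0.20). In both, the mRNA was higher in heart and the footprint levels overlapped. Il11ra1, Rsph3a and Hba-a2, at -2.65, -2.27 and -2.23, share 69.8%, 84.6% and 91.7% of their 28-base windows with other genes. Hba-a2, an alpha globin gene of red blood cells, had RNA-seq levels of 6165, 9129.9, 7842 and 10110.0 CPM in heart and 49.9, 53.5 and 54.2 CPM in C2C12 cells, and Ribo-seq levels of 2789, 3843, 4384 and 4865 CPM and 114, 116 and 123 CPM. Where the globin counts in C2C12 libraries came from was not tested.

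Histone genes had the lowest TE in heart relative to C2C12 cells. This group, the 31 genes in the table whose symbols begin with Hist and a digit, was chosen after the data had been seen. All 12 tested genes were lower by at least 2-fold, with a median of -5.64 and a range from -8.17 for Hist2h2aa1 to -3.86 for Hist1h2br. Both sides of the ratio contributed. In RNA-seq the median was 2.20 higher in heart, and in Ribo-seq it fell by 3.09. Hist1h1c, a linker histone with 12.2% of its windows in other genes, had RNA-seq levels of 142, 131, 219 and 173 CPM in heart and 31.9, 27.8 and 31.4 CPM in C2C12 cells. Its Ribo-seq levels were 632, 788, 845 and 759 CPM and 2781, 3390.4 and 3104 CPM, with a TE difference of -4.50 (SE 0.19, adjusted p = 1.52e-14). Histone genes took 0.0536% to 0.0565% of the counts in heart RNA-seq, 0.0431% to 0.0511% in C2C12 RNA-seq, 0.273% to 0.316% in heart Ribo-seq and 4.18% to 5.03% in C2C12 Ribo-seq. Most mRNAs of these genes end in a stem-loop without a poly(A) tail, are made in the S phase of dividing cells, and are largely lost in poly(A) selection, by which the RNA-seq libraries were made. The part of poly(A) selection in the difference of these genes was not tested. Leaving the histone genes out of the fit gave 2480 genes called in TE.

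The TE difference followed transcript length. When genes were divided by length into 5 bins of 903 to 906 genes, in the bin with the shortest transcripts (351 to 1650 bases), the median was -0.65, with 4.86% higher in heart and 60.7% lower. In the bin with the longest (4906 to 123179 bases) it was 0.78, with 61.2% higher and 5.20% lower. The 3 bins between them had medians of -0.25, -0.00085 and 0.30. Median length was 4691.5 bases for genes of higher TE and 1820 bases for those of lower TE. Their coding sequences had medians of 2157 and 984 bases, and their 3′ untranslated regions 1781.5 and 428 bases. Across genes, the Spearman correlation of the TE difference was 0.58 with length, 0.41 with coding length, 0.46 with the length of the 3′ untranslated region and 0.13 with that of the 5′ untranslated region. The correlation of length with the RNA-seq difference was -0.23 and with the Ribo-seq difference 0.08. Against the mean of the C2C12 libraries of the same assay, each heart RNA-seq library had a negative correlation (-0.16 to -0.26, with replicate 3 nearest 0) and each heart Ribo-seq library a weak positive one (0.07 to 0.09).

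GC content went the other way, with medians of 46.1% in genes of higher TE and 54.7% in those of lower TE, and a Spearman correlation of -0.50. A smooth trend with length accounted for 30% of the variance of the TE difference over genes, and length together with GC content for 41.3%. With the trend in length removed, 1941 genes (42.9%) remained called, and with both trends removed 1459 (32.3%). What underlies these trends was not tested.

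**Figure D4:**
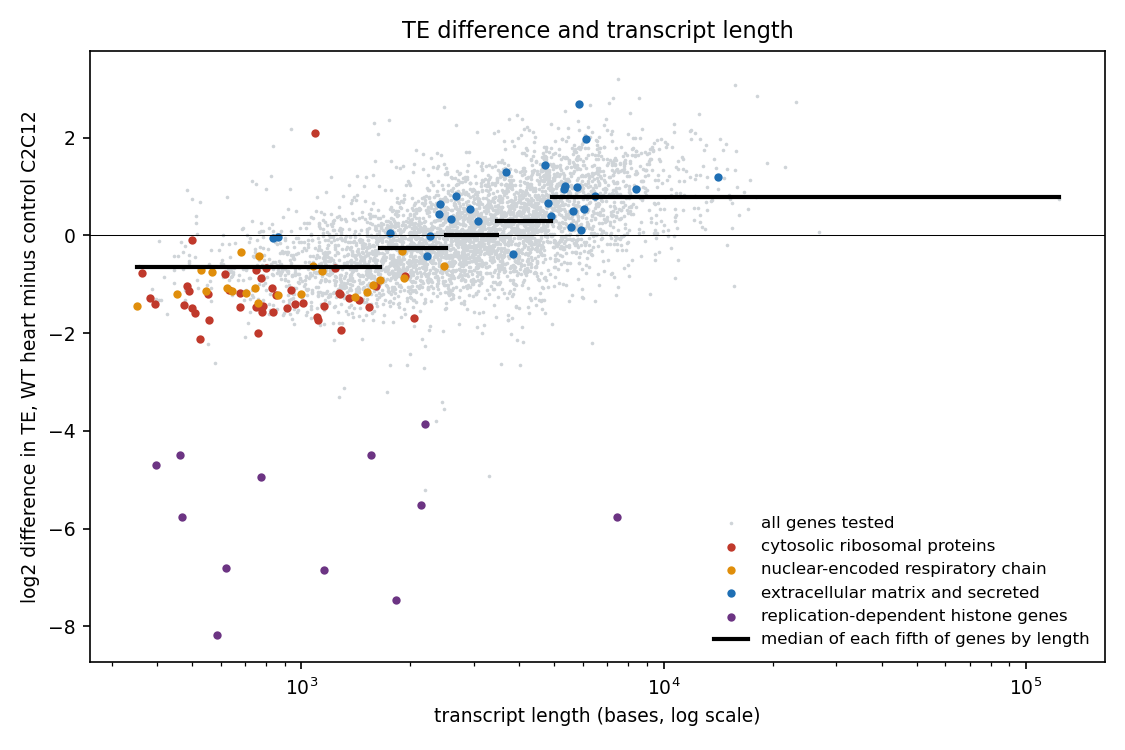
Log2 difference in TE between WT heart and control C2C12 (vertical axis) against transcript length in bases (horizontal axis, log scale) for 4521 genes, with black bars at the median of each of 5 bins of genes by length. The medians step from -0.65 to 0.78, with ribosomal protein and respiratory chain genes among the short transcripts.

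The gene lists differ in length too, with a median of 792 bases for ribosomal proteins, 763 for the respiratory chain, 1162 for mitochondrial ribosomal proteins, 1710.5 for the proteasome and 4754 for the extracellular matrix. With the trend in length removed, the median of ribosomal proteins was -0.59, with 23 lower and 2 higher of 44 (21.6% and 21.3% of all genes). With both trends removed it was -0.58, with 21 lower and 2 higher (16.1% of all genes in each direction). Other TOP mRNAs had medians of -0.46 and -0.57, with 6 and 9 of 12 lower and 1 higher each. For the respiratory chain the medians were -0.25 and -0.19, with 9 and 7 of 23 lower and 2 and 0 higher. For mitochondrial ribosomal proteins they were 0.0087 and 0.0033, with 14 and 13 lower and 9 higher each. Proteasome subunits had medians of -0.14 and -0.32, with 9 and 11 of 26 lower and 3 and 1 higher. The extracellular matrix had medians of 0.37 and 0.59, with 12 and 17 of 28 higher and 2 and 0 lower. Histone genes stood at -5.00 in both.

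Of the single genes chosen by rule, Clasp2, Phkb, Fnip1, Ahnak, Arpc1a, Thbs1, Sord and Kiz were called with both trends removed, with log2 differences of 1.75, 1.71, 1.51, 1.70, 2.46, 2.10, -3.65 and -2.67. Of the 73 genes, 20 lost their call, and some of the 73, such as Vim and Rrm2, had no call to lose. Among translation and mitochondrial genes those that lost their call were Rpl8 (-0.17), Naca (0.13), Eif3b (-0.014), Gars (-0.19), Iars (0.04), Ndufa3 (-0.15), Sdhb (-0.0019), Mrpl28 (-0.20), Mrpl12 (-0.24) and Acsl1 (0.44). The others were Psmb3 (-0.03), Psme4 (0.05), Arpc1b (-0.21), Oaz1 (-0.32), Hspa8 (-0.34), Cdk4 (-0.23) and Ccnd3 (-0.050), and Cebpb, Hspb1 and Hspa4l, which changed sign to 0.25, 0.30 and -0.21 without a call. With length alone removed, the call of Hspg2 was lost as well, at 0.08. Tnnt2 and Eif4g1, not called above, were called with both trends removed, at 1.11 and -0.29.

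The same tissues were available in libraries that share no sample with those above, namely the heart of Rpl3l-/- mice, which lack exon 2 of Rpl3l, and C2C12 cells that stably express RPL3L from a retrovirus. Between them 2358 of the 4521 genes (52.2%) differed in TE, 1066 higher and 1292 lower in heart. Of the 2489 genes called above, 1846 were called in the same direction (74.2% of them and 78.3% of the 2358) and 5 in the opposite one, and 2393 (96.1%) had the same sign. Of the 1076 genes with at least a 2-fold difference, 951 (88.4%) were called in the same direction, and across genes Pearson r was 0.89. The medians were -1.52 for ribosomal proteins (41 of 44 lower, Rps2 higher at 1.37), -0.90 for the respiratory chain (23 of 23 lower), -0.68 for mitochondrial ribosomal proteins (39 of 47 lower), -0.59 for the proteasome (22 of 26 lower) and 0.53 for the extracellular matrix (15 higher and 1 lower of 28). Ahnak, Clasp2, Arpc1a, Sord and Kiz had values of 2.57, 2.11, 1.97, -3.60 and -2.86. Chaperones moved to a median of -0.22 and the initiation factors to -0.38, from 0.09 and -0.050. With cells that express RPL3 in place of RPL3L, and the same Rpl3l-/- hearts, 2286 genes (50.6%) were called, of which 1854 were shared in direction (74.5% of the 2489 and 81.1% of the 2286).

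The Spearman correlation of the TE difference with length was 0.62 in the Rpl3l-/- heart and RPL3L-expressing cells, and that with GC content was -0.26, against 0.58 and -0.50 above. The trend with length was thus present in separate libraries, and that with GC content was smaller in size.

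**Figure D5:**
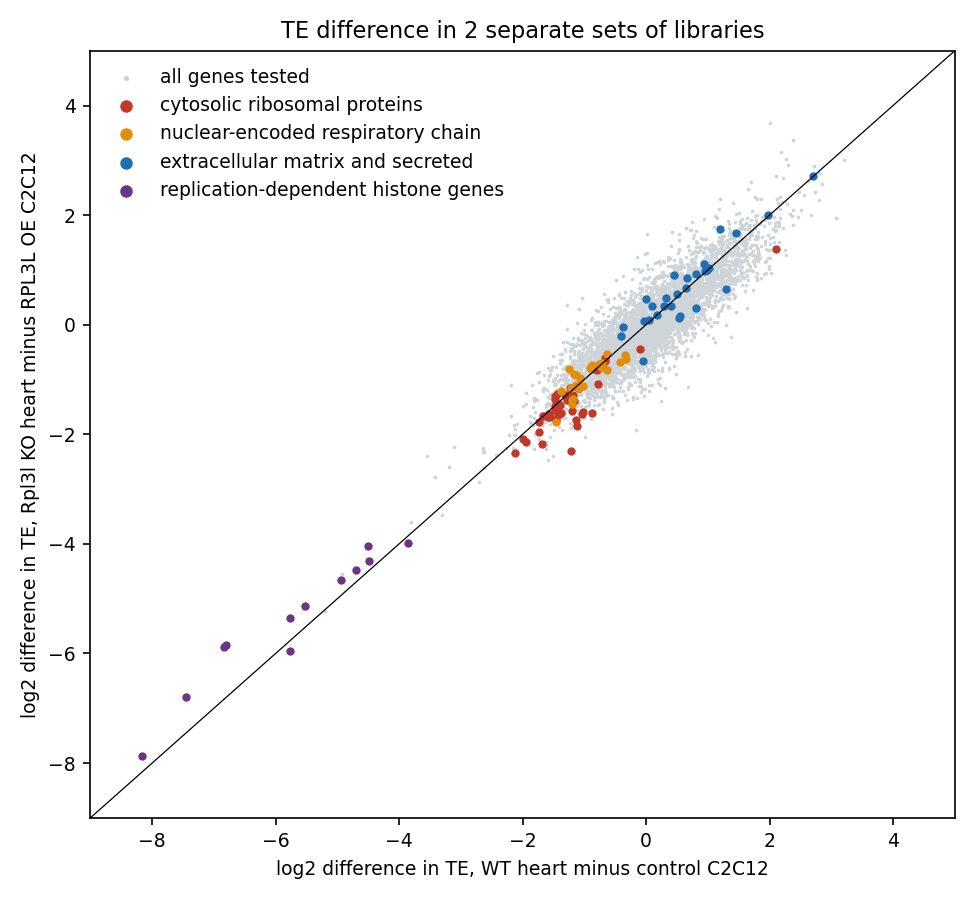
Log2 difference in TE between WT heart and control C2C12 (horizontal axis) against that between the Rpl3l-/- heart and C2C12 cells expressing RPL3L (vertical axis) for 4521 genes, with the diagonal marking equal values. The points lie along the diagonal (Pearson r 0.89), with respiratory chain genes below 0 and histone genes at the lower end on both axes, and Rps2 above 0 on both.

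Whether the tissue difference itself differed between these sets of libraries was tested in 1 model of all 28 libraries. Of 4521 genes, 544 had an unadjusted p under 0.05 by edgeR, more than chance alone would give at that threshold. After adjustment 5 genes (0.111%) passed, each at an adjusted p of 0.0498. They were Mtif2, Gtf2a2, Smc4, B3galnt2 and Fem1a. Mtif2, an initiation factor of mitochondrial translation, had a TE difference of 0.54 between WT heart and control cells and -0.53 in the other libraries. Leaving out single libraries gave between 0 and 22 genes, so that this count depended on single libraries. A p that misses the threshold does not show that the sets were equal.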

How the data were processed

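RNA-seq and Ribo-seq libraries of wild-type mouse hearts (4 each) and of control C2C12 cells (3 each) were used, with libraries of Rpl3l-/- heart and of C2C12 cells expressing RPL3L or RPL3 for comparison. The authors deposited a table of raw read counts per transcript. Per the study's methods, Ribo-seq libraries were made from RNase I footprints of cycloheximide-treated lysates after rRNA depletion, and RNA-seq libraries from poly(A)-selected RNA. Footprint reads were trimmed with cutadapt, freed of rRNA and aligned with STAR to GRCm38.p6, deduplicated by their molecular identifiers, and counted with featureCounts with multiple mappings allowed. How RNA-seq reads were processed, which tool versions were used and whether counting used strand is not given in the sources used here.

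The table held 23877 transcripts on 47754 lines, each on 2 identical lines, of which 1 was kept. Of these, 23662 were matched to GENCODE M21 (GRCm38) and 215 were not. For each of 10485 genes 1 transcript was taken, that of the highest mean count, and 4521 genes averaging 10 counts or more in every group were tested. TE was tested with edgeR 4.0.16 (R 4.3.3) as the interaction of tissue and assay in 1 quasi-likelihood model of 14 libraries, with TMM factors computed within each assay and Benjamini-Hochberg adjustment over all 4521 genes. All differences are log2, heart minus C2C12. The scripts were tested on simulated data. Read sampling limits low genes most, and heart Ribo-seq was the shallowest group.

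Named genes were, among those averaging 50 counts or more, the 10 largest called differences in each direction with the same order for every choice of libraries, and in each list the extreme called members and the 2 with the highest Ribo-seq level. A further gene of this rule is not reported here. Further list members were named as examples after their values were seen. The members, the 15 gene lists and the 8 marker lists were chosen with earlier results of these data known. Shared sequence was the share of 28-base windows of a transcript found in transcripts of other genes. Alternatives were library totals, TMM over all libraries, DESeq2 1.42.0, other count minimums, other transcript choices, a replicate block, leaving out each library, and, chosen after seeing the data, removal of trends with length and GC content (natural splines with 4 degrees of freedom) and of histone genes. Tables were made with Python 3.11.15, pandas 2.3.3 and NumPy 2.4.6 and drawn with matplotlib 3.10.9. The table of m6A peaks and the other samples of the series were not used here.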

Additional observations from a re-analysis of the deposited data

Results flagged for a closer look

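In 7 of the 146 groups of 4 heart libraries examined, 1 library stood apart from the others by Dixon's ratio of its gap to the range of the group, where chance gives about 1 in 20. In heart RNA-seq, replicate 1 was the lowest for Ahnak (ratio 0.837), Ftl1-ps1 (0.868) and Hist1h2bg (0.843), and replicate 3 for Atp5b (0.901), Hspb1 (0.866) and Kiz (0.913). In heart Ribo-seq, replicate 4 was the lowest for Il11ra1 (0.859). Leaving out any single library kept the calls of all 7 genes.

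The tissue difference in TE differed between WT heart with control cells and Rpl3l-/- heart with RPL3L-expressing cells for 5 genes by the edgeR test of the difference itself, each at an adjusted p of 0.0498. The log2 difference between the contrasts was 1.03 for Mtif2 (SE 0.23), 1.11 for Gtf2a2 (SE 0.24), 1.14 for Smc4, which encodes a subunit of condensin (SE 0.24), 1.77 for B3galnt2 (SE 0.39) and -1.06 for Fem1a (SE 0.22). Of these, Gtf2a2 did not pass between WT heart and control cells, at 0.37 (SE 0.17). Their part in any effect of RPL3L was not tested, since the knockout and the overexpression enter together.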

How the results depend on the processing

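Between 2255 and 2659 genes were called in TE when single libraries were left out, 1109 to 1267 higher and 1145 to 1392 lower in heart, and 995 to 1193 by at least 2-fold. RNA-seq levels then gave 3619 to 3800 genes, Ribo-seq levels 3413 to 3619, and the difference of the contrasts 0 to 22. With a mean count of at least 50 and fewer genes tested, 1549 genes were called in TE (725 higher, 824 lower, 515 by 2-fold), 2085 in RNA-seq, 1994 in Ribo-seq and 11 for the difference of the contrasts. With no filter beyond a total of 10 counts, 8027 genes were tested. Of these, 1838 were called by 2-fold, 6384 in RNA-seq and 5593 in Ribo-seq. With trends in length and GC content removed, 1459 were called (729 higher, 730 lower, 450 by 2-fold), and 580 by 2-fold with length alone. The difference of the contrasts gave 12 genes with library totals and 39 with DESeq2. The cause of these changes was not tested beyond the number of genes tested.

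DESeq2 called 2512 genes, TMM over all libraries 2488, and a replicate block 2532 (1244 higher, 1288 lower, 1072 by 2-fold). The numbers were not taken as pairs, since the labels do not state that they mark the same heart or culture. Same-numbered RNA-seq and Ribo-seq libraries correlated at 0.0163 to 0.129 in heart and 0.0209 to 0.0805 in C2C12 cells. Heart RNA-seq replicates 1 and 2 correlated best with another number, whereas heart replicates 3 and 4 and each C2C12 replicate correlated best with their own. The block kept all 73 named genes on their side.

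Some named genes changed sign. In the Rpl3l-/- hearts with RPL3L and RPL3 cells, Ccnd3 (-0.83 in the main test, called) was at 0.0583 and 0.05001, Rrm2 (-0.52, not called) at 0.1326 and 0.1008, Hspa5 (0.19, not called) at -0.003762 and -0.08703 and Vim (-0.10, not called) at 0.08706 and 0.02813. With RPL3L cells alone, Lpl (0.51, not called) was at -0.03482 and Tnnt2 at -0.1081. Vim was at 0.1289 with library totals. With length removed, Naca was at -0.04758, Vim at 0.14 and Eif4g1 at -0.5674. With GC content removed as well, Cebpb was at 0.2464, Dcn at -0.01667, Eif4g1 at -0.294, Hspa4l at -0.2089, Hspb1 at 0.301, Lpl at -0.1064 and Vim at 0.2637. Dcn was at -0.008327 with DESeq2, -0.04778 with all transcripts, -0.0158 with RPL3 cells, and -0.04829 to 0.1021 without single libraries. Eif4g1 was at -0.04362, -0.08598, -0.0915 and -0.01271 to 0.03556, and at -0.00361 with a mean count of 50. The cause was not tested.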
